A study of Arabidopsis thaliana with 13 samples.

Results

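The miRNA genes described here are the 132 loci of the miRNA-seq table whose family number, the number after *MIR*, is 1000 or above. They are 132 of the 325 loci of *Arabidopsis thaliana* in the table and belong to 106 families, 15 of them with more than 1 locus. The rule uses the name alone and no measured value. The lowest-numbered locus inside it, *MIR1886*, had 0.800 RPM (its reads scaled to the mapped reads of the library) in 1 day 0 library and 0 in the other 12 libraries, and the locus just outside it, *MIR870*, was above 0 in 2 libraries, with 0.933 and 1.90 RPM.

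In plants a *MIR* gene is transcribed into an RNA that folds back on itself, and DICER-LIKE1 cuts a mature miRNA out of the resulting hairpin. The miRNA guides an ARGONAUTE protein to matching mRNAs. Family numbers were given in order of discovery. Low numbers therefore hold the abundant miRNAs shared by many land plants, while most families of high number came from deep sequencing, are known only from *Arabidopsis* and its close relatives, and are called young. Young *MIR* genes often arise from inverted duplications of other genes, keep long stretches of pairing between both arms, and are weakly expressed. For most of them a target in the plant is not established. An exception is miR2111, an older miRNA of phosphate starvation and of root nodulation signals in legumes.

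All libraries came from plants of the Landsberg ecotype that carry pAP1:AP1:GR in the *ap1 cal* double mutant. In these plants the *AP1* promoter drives AP1 fused to the hormone-binding part of the glucocorticoid receptor, and without induction the shoot apex keeps producing inflorescence-like meristems in place of flowers. Dexamethasone (DEX) lets AP1-GR act, and flowers then start together. Of the 13 libraries, 3 come from vegetative seedlings without DEX and 2 from inflorescences without DEX on day 0. With DEX, day 2 has 3 libraries, day 4 has 2 and day 8 has 3. Of the day 2 libraries, 1 carries a time label of 0 beside a title of day 2 and was taken as day 2. Seedlings thus differ from day 0 in tissue and age, and days 2 to 8 differ from day 0 in both time and DEX. *MIR156c*, a miRNA gene of the juvenile phase outside the set, had 53.2 to 87.4 RPM in seedlings, against 0 to 2.94 RPM in inflorescences.

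The depth sets what can be seen of such weak genes. Low RPM values are whole multiples of the value of 1 read, which put the mapped reads at 926300 to 2142752 in the inflorescence libraries and at 148673 to 366691 in the seedling libraries. A single read is worth 0.467 to 1.08 RPM in inflorescences, against 2.73 to 6.73 RPM in seedlings. Where all libraries of a group are at 0, up to 3 reads over the group could have been missed, which is 0.610 to 1.14 RPM on the 4 days and 3.76 RPM in seedlings (these limits and all counting intervals cover counting error only, as no molecular identifiers were used). A fold against a group at 0 sets the pooled rate of the other group against these 3 reads. It leaves out the counting error of the reads seen, so the true fold may be smaller. As far as the deposited table shows, run 1 held the seedlings, run 2 held days 0 and 2, and run 3 held the later days. That table names a run at the first library of each block only, and the libraries after it were taken to share its run. On that reading only day 2 against day 0 and day 8 against day 4 lie within a run. For every other comparison the run and the stage or tissue cannot be told apart. In bulk tissue, fewer cells that make a miRNA and less of it per cell cannot be told apart either.

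The mature sequences below are those of the loci that changed between stages, of the 5 most abundant in inflorescences, and of *MIR5650*, which was seen in seedlings only. They are read 5′ to 3′ from the TAIR10.1 genome at the RefSeq annotation, in DNA letters. Capitals mark the seed, bases 2 to 8, which contributes most to target pairing. *MIR5645d* and *MIR5645e* share the whole mature sequence.
miR8179: tGACTGCAttaacttgatcgt
miR8169: aTAGACAGagtcactcacaga
miR5659: cGATGAAGgtctttggaacggta
miR4228-5p: aTAGCCTTgaacgccgtcgtt
miR4228-3p: tCGGATGCgaaacggtggtgt
miR5647: tCAAGTTTgatgacgattcca
miR5995b: aCATATGAtctgcatctttgc
miR5652: tTGAATGTgaatgaatcgggc
miR5656: aCTGAAGTagagattgggttt
miR2937: aTAAGAGCtgttgaaggagtc
miR8180: tGCGGTGCgggagaagtgc
miR8174: aTGTGTATagggaagctaatc
miR5645d: aTTTGAGTcatgtcgttaag
miR5645e: aTTTGAGTcatgtcgttaag
miR5650: tTGTTTTGgatcttagataca

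The loci that passed the test only between inflorescences and seedlings, given further on, have these mature sequences, with the seed again in capitals. No seed is shared among them or with the sequences above.
miR5014a-5p: aCACTTAGttttgtacaacat
miR5014a-3p: tTGTACAAatttaagtgtacg
miR8165: aATGGAGGcaagtgtgaagga
miR8167f: aGATGTGGagatcgtggggatg
miR8183: tTTAGTTGacggaattgtggc
miR5024-5p: aTGACAAGgccaagatataaca
miR5024-3p: cCGTATCTtggccttgtcatt
miR5629: tTAGGGTAgttaacggaagtta
miR5632-5p: tTGATTCTcttatccaactgt
miR5632-3p: tTGGATTTatagttggataag
miR5635d: tGTTAAGGagtgttaacggtg
miR5637: aATGCGCAactctatatttcc
miR5644: gTGGGTTGcggataacggta
miR5666: aTGGGACAtcgagcatttaat
miR5997: tGAAACCAagtagctaaatag
miR4245: aCAAAGTTttatactgacaat
miR8168: aGGTGCTGagtgtgctagtgc

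The first base of a plant miRNA takes part in its sorting, since AGO1 favours a 5′ U and AGO2 and AGO4 favour a 5′ A. Of the 151 mature sequences annotated at the 132 loci, 64 start with A (42.4%) and 66 with T (43.7%), the U of the RNA. Among the 129 mature sequences of loci with numbers from 400 to under 1000 the shares were 18.6% for A and 67.4% for T, and among the 144 of loci with numbers under 400 they were 10.4% and 59.7%. The 98 mature sequences of the detected loci had nearly the same makeup as the whole set, with 41.8% A and 44.9% T. A length of 21 bases, the usual product of DICER-LIKE1, was annotated for 111 of the 151 (73.5%), against 76.0% for numbers from 400 to under 1000 and 78.5% for numbers under 400. These shares describe the annotation and were not tested.

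Long exact inverted repeats were more frequent in these hairpins than in those of lower number, a description that was not tested. The longest run of bases whose exact reverse complement lies elsewhere in the same annotated hairpin had a median of 13 bases over the 132 loci, from 5 to 111. It reached at least 20 bases in 28 of them (21.2%), against 6 of 96 loci (6.25%) with numbers from 400 to under 1000 and 0 of 96 with numbers under 400 (1 of the 97 had no matching annotation). The median annotated hairpin was 147 bases long, against 186.5 for numbers from 400 to under 1000 and 123 for numbers under 400, and the runs were not adjusted for length. Of the 28 loci, 14 were detected. Such runs were present in 17.5% of the 80 loci detected in any library and in 26.9% of the 52 others. The longest runs, 111 bases in *MIR5655* and 91 in *MIR8178*, belong to a locus with 1 read in all and to one with none.

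Both *MIR8179*, the most abundant locus of the set in inflorescences, and *MIR5650* are such long fold-backs, with exact runs of 30 and 23 bases, while *MIR4228* reaches only 7. *MIR8169*, *MIR5659* and *MIR5647*, also among the 5 most abundant, have runs of 7, 13 and 15 bases. The hairpins of *MIR8179*, *MIR5650* and *MIR4228* are printed as examples, with the mature sequences in capitals. *MIR8179* (AT4G05930) lies on the minus strand at chr4:7161853-7161963 of TAIR10.1, *MIR5650* (AT2G09995) on the plus strand at chr2:19686957-19687039 and *MIR4228* (AT1G09687) on the plus strand at chr1:28889375-28889532.
MIR8179: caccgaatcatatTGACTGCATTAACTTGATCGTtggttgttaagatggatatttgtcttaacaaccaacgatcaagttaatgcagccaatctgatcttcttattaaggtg
MIR5650: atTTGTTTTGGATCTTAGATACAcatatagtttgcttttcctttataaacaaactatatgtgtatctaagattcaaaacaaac
MIR4228: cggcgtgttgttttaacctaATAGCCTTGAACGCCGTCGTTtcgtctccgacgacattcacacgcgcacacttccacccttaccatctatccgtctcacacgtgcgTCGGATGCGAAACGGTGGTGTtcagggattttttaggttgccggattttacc

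Most of the 132 loci gave few reads or none. In any of the 13 libraries 80 were above 0 (60.6%), against 65 of 96 loci (67.7%) with numbers from 400 to under 1000 and 71 of 97 (73.2%) with numbers under 400. Of the 80, 16 had a single read in all libraries together, 26 had 2 to 9 reads, 28 had 10 to 99 and 10 had 100 or more. No library gave more than 1 read of 28 of them. All 132 loci together had an estimated 2794 reads, of 422287 reads of miRNA genes. A minimum of 1 RPM in at least 2 libraries left 48 loci (36.4%), against 47.1% of all 325.

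**Figure D1:**
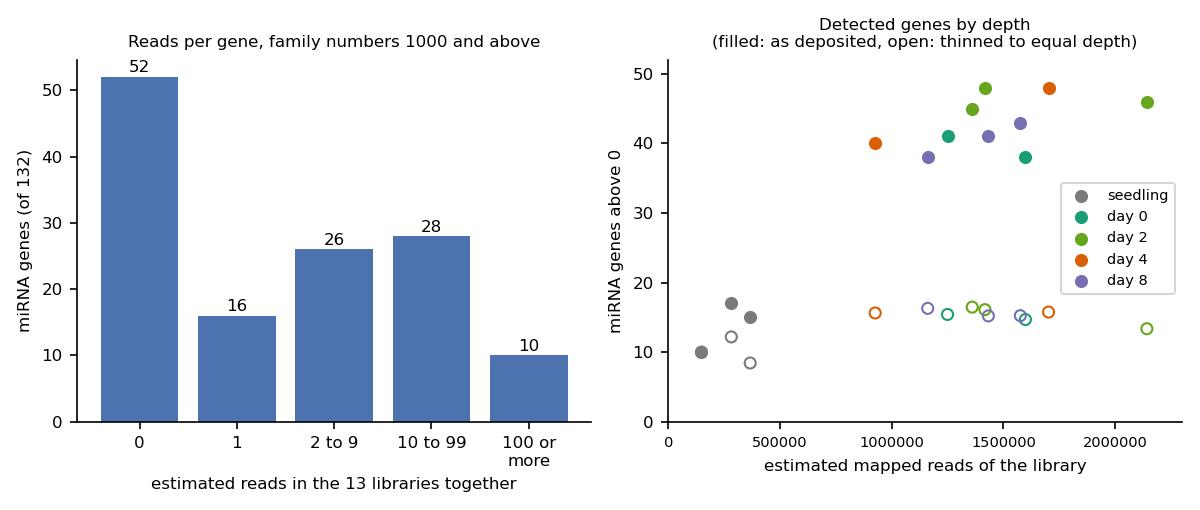
Left, number of the 132 miRNA genes with family numbers 1000 and above (vertical axis) by their estimated reads in all 13 libraries together (horizontal axis), with 52 at 0 and 10 at 100 or more. Right, number of these genes above 0 in each library (vertical axis) against its estimated mapped reads (horizontal axis), with filled points for the deposited values and open points for the mean of thinning to 148673 mapped reads, coloured by group, where the gap between the 10 inflorescence libraries and the 3 seedling libraries narrows on thinning.

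Each inflorescence library showed 38 to 48 of the loci, and each seedling library 10 to 17. Much of that gap goes with depth. When every library was thinned to the 148673 mapped reads of the shallowest seedling library, 13.4 to 16.5 loci were expected above 0 in inflorescences, against 8.43 to 12.2 in seedlings, which still do not overlap. These are expected values without sampling spread, and the shallowest library enters as counted. Thinning also leaves the summed RPM of all miRNA genes unequal, at 16721 to 22800 in seedlings and 22834 to 31807 in inflorescences. Whether a gap beyond depth remains was not tested. Over whole groups 23 loci were above 0 in seedlings, 51 on day 0, 64 on day 2, 55 on day 4 and 51 on day 8, and day 2 is also the group with the most mapped reads. Of the 80 loci, 57 were seen only in inflorescences, 20 in both tissues and 3 only in seedlings, where *MIR2936* and *MIR5654* had 1 read each and *MIR5650* had 8.

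By number block, the 2000s had 6 of 10 loci above 0, the 3000s 4 of 5, the 4000s 2 of 7, the 5000s 50 of 80, and those of 6000 and more 16 of 26, while the 4 loci of the 1000s gave 2. Blocks of so few loci cannot be ranked. The reads sat mostly in the 5000s, with 1166, and in the highest block, with 1214. Only 18 loci (13.6%) were above 0 in all 10 inflorescence libraries, against 22.8% of all 325 loci, and only *MIR3434*, *MIR5647* and *MIR8179* in all 13 libraries.

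Of the 15 families with several loci, 7 had more than 1 locus above 0 and 4 (miR2933, miR5630, miR5642 and miR5649) had none. Together they hold 41 loci, of which 21 were detected. Of the 6 *MIR8167* loci, which share 1 seed, *MIR8167f* had 140 reads and the other 5 had 0. Of the 6 *MIR5645* loci, 3 were above 0, with 39 reads in all, and of the 4 *MIR5635* loci 3 were, with 22. Both *MIR2111* loci, of the phosphate starvation miRNA, were above 0 with 2 reads each.

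A locus at 0 need not be silent, because the authors counted with STAR's gene counts, which keep only reads that map to 1 place. Of the 132 loci, 78 have a mature sequence that occurs at exactly 1 place in the genome, 50 have mature sequences found at 2 to 9 places, and 4 at 10 or more. The first kind had 55 detected loci (70.5%) and 2329 reads, the second 22 (44.0%) and 454 reads, and the last 3 and 11 reads. Leaving off the last base moved 1 locus out of the first kind, to 77. The mature miR8167f occurs at 7 places, so that reads of exactly that sequence would not be among the 140 reads of its locus. The same holds for *MIR8174* (7 places), *MIR8180* (8), *MIR5635d* (6), *MIR8168* (6), *MIR5645d* and *MIR5645e* (5) and *MIR5995b* (2). It also holds for the 5p sequence shared by both *MIR2111* loci (2), whose few reads thus do not give the level of that miRNA. Of the families with no locus above 0, miR2933 (9), miR5630 (2), miR5642 (3) and miR5649 (2) have only such sequences.

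The set as a whole gave under 1% of the miRNA signal in every group. Its summed RPM was 94.1 ± 35.2 (SD, n = 3) in seedlings, 173 ± 0.238 (n = 2) on day 0, 175 ± 28.7 (n = 3) on day 2, 195 ± 6.67 (n = 2) on day 4 and 211 ± 9.32 (n = 3) on day 8. As a share of the RPM of all miRNA genes this was 0.487%, 0.629%, 0.674%, 0.681% and 0.685% in the same order. The median detected locus had 0.615 RPM on average over the inflorescence libraries, against 0.951 RPM for numbers from 400 to under 1000 and 2.27 RPM for numbers under 400.

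A few loci carried most of it. The 10 most abundant made up 68.5% of the set's RPM in inflorescences, and *MIR8179* alone 16.1%. By mean over the 10 inflorescence libraries they were *MIR8179* with 30.6 RPM, *MIR8169* with 18.1 RPM, *MIR5659* with 14.1 RPM, *MIR4228* with 11.6 RPM, *MIR5647* with 11.4 RPM, *MIR3434* with 10.4 RPM, *MIR8167f* with 9.70 RPM, *MIR8183* with 9.20 RPM, *MIR8165* with 8.00 RPM and *MIR5996* with 6.84 RPM. *MIR8179* ranked 22nd among all 325 loci. In seedlings the 5 most abundant, *MIR3434* (13.8 RPM), *MIR5647* and *MIR5652* (9.97 RPM each), *MIR5650* (9.70 RPM) and *MIR8179* (6.42 RPM), made up 52.9% of the set. The whole set gave only 27, 11 and 38 reads in seedling replicates 1, 2 and 3, so this order is uncertain. Since RPM counts reads of a locus and not of a length of RNA, these levels compare loci only as numbers of counted reads.

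**Figure D2:**
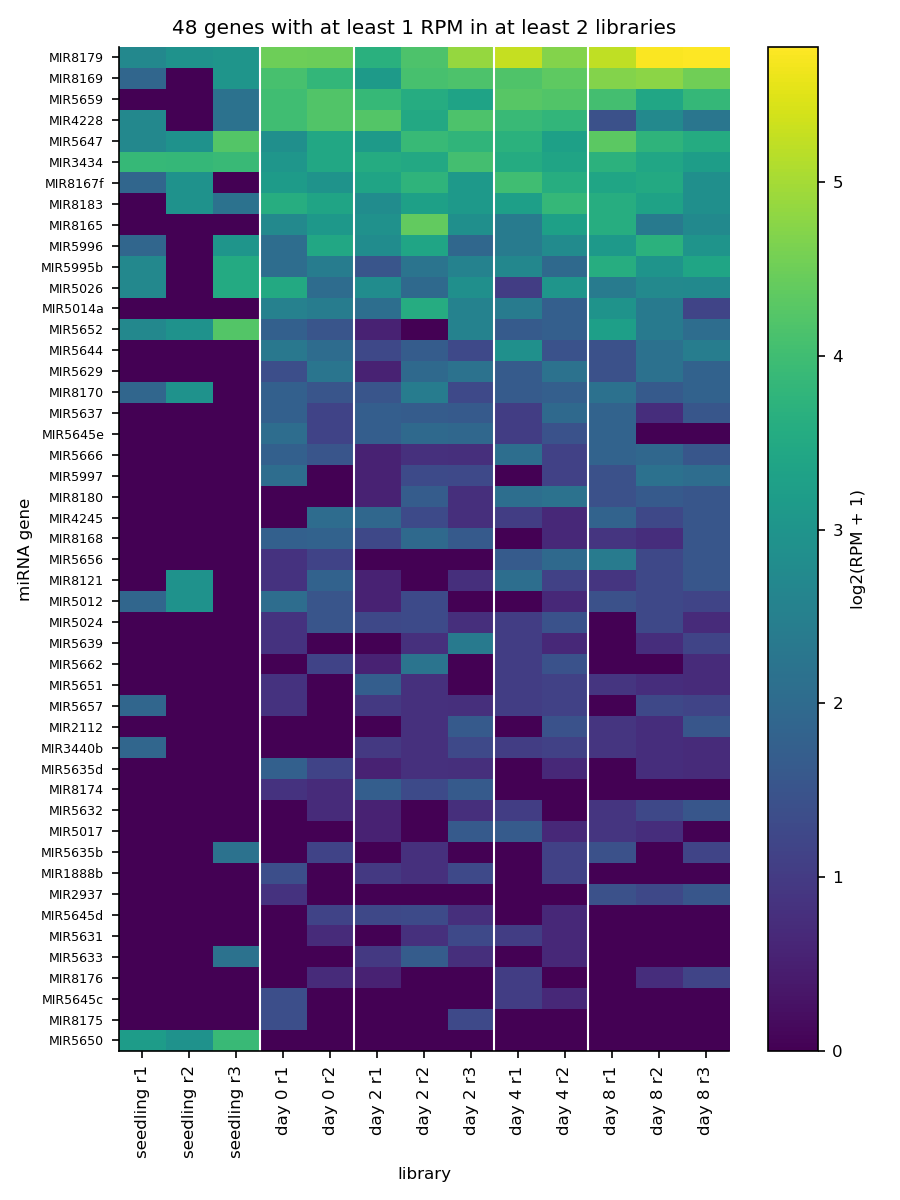
Level of the 48 miRNA genes with at least 1 RPM in at least 2 libraries (rows, from the highest mean in inflorescences to the lowest) in each of the 13 libraries (columns, r is the replicate), as log2(RPM + 1) by colour, with white lines between groups. The upper rows are filled in all inflorescence libraries, many of the lower rows hold zeros, and *MIR5650* in the last row is filled in the 3 seedling libraries only.

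*MIR3434* and *MIR5647* were among the 10 most abundant loci of the set in both tissues. Their seedling values rest on few reads, as 1 read is worth 2.73 to 6.73 RPM there. *MIR3434* lies in an intron of *alpha-ADR*, on the same strand, a gene of the adaptor complex of endocytosis. The inflorescence libraries ranged from 7.20 to 15.5 RPM with a median of 10.1 RPM, and the seedlings had 13.6, 13.5 and 14.2 RPM. *MIR5647*, antisense to an exon of *ARL2*, a gene of root gravitropism, had 6.40 to 18.9 RPM in inflorescences, with a median of 11.3 RPM, and 5.45, 6.73 and 17.7 RPM in seedlings. Neither passed the test in any of the 7 comparisons, although *MIR3434* was lower than in seedlings on days 0 and 8 with median-ratio scaling.

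For the comparisons, log2(RPM + 1) was fitted with limma for every miRNA gene that reached 1 RPM in 2 or more of the libraries fitted, with Benjamini-Hochberg adjustment over all of them. That left 46 of the 132 loci among 137 genes in the fit of the 10 inflorescence libraries, and 48 among 153 in the fit with seedlings. A locus passed at an adjusted p under 0.05. Some loci reached the minimum of 1 RPM through the group where they are highest. *MIR2937* and *MIR5632* would not have entered without day 8, nor *MIR8174* and *MIR5645d* without day 2. The same holds for *MIR5635d* without day 0 and *MIR5650* without the seedlings. The calls of these loci are thus not independent of the filter. Fold changes on this scale understate those of weak genes. The paper calls the replicates biological, the labels do not say so, and the p-values rest on library-to-library spread, which may in part be technical.

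Day 2 against day 0, within a run, addresses the first steps after induction. No locus of the set passed the test (0% of all tested genes were higher and 0% lower), and 4 of the 46 had an unadjusted p under 0.05, with a smallest adjusted p of 0.51 from limma. The median log2 fold change was -0.02 over the 46 loci and -0.01 over all 137 genes. The median SE of a log2 fold change was 0.47 over the 46 loci, and the libraries of both days did not overlap for 12 of them, against 23.4% of all genes.

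Day 8 against day 4, also within a run, spans the differentiation of floral organs. *MIR4228* fell and *MIR2937* rose, 1 locus each of 46, while 2.92% of all tested genes were lower and 11.7% higher. The median log2 fold change was -0.01 for the set and 0.15 over all genes. The libraries of both days did not overlap for 18 of the 46 loci, against 43.1% of all genes.

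*MIR4228* lies within an exon of AT1G09915, an annotated RNA of no stated kind, on the same strand. It had 1.72, 5.58 and 3.81 RPM on day 8, against 14.0 and 12.9 RPM on day 4, which do not overlap. The log2 fold change was -1.71 (an SE of 0.38, limma adjusted p = 0.0029). These values rest on 16 reads on day 8 and 35 on day 4. The earlier stages were as high as day 4, with 15.2 and 17.5 RPM on day 0 and 17.7, 10.3 and 16.9 RPM on day 2. *MIR4228* was therefore also lower on day 8 than on day 2 (log2 fold change of -1.82, adjusted p = 0.00019) and than on day 0 (-1.97, adjusted p = 0.00040), both across runs and both from limma. With the seedlings in the fit, *MIR4228* no longer passed against day 4 (adjusted p = 0.19) or day 0 (adjusted p = 0.065), and it stayed past the threshold without any 1 library.

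*MIR2937*, which overlaps no other gene, had 1.72, 1.40 and 1.90 RPM on day 8 and 0 in both day 4 libraries. It was also at 0 on day 2 and had 0.800 and 0 RPM on day 0, so that only the day 8 libraries brought it into the fit. Its 7 reads on day 8 gave a rate 1.47-fold that of 3 reads over day 4 and 2.75-fold that of 3 reads over day 2. The adjusted p from limma was 0.016 against day 4, where it rose to as much as 0.11 without 1 library (day 4 replicate 1 or 2, or day 8 replicate 3), and 0.0033 against day 2.

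**Figure D3:**
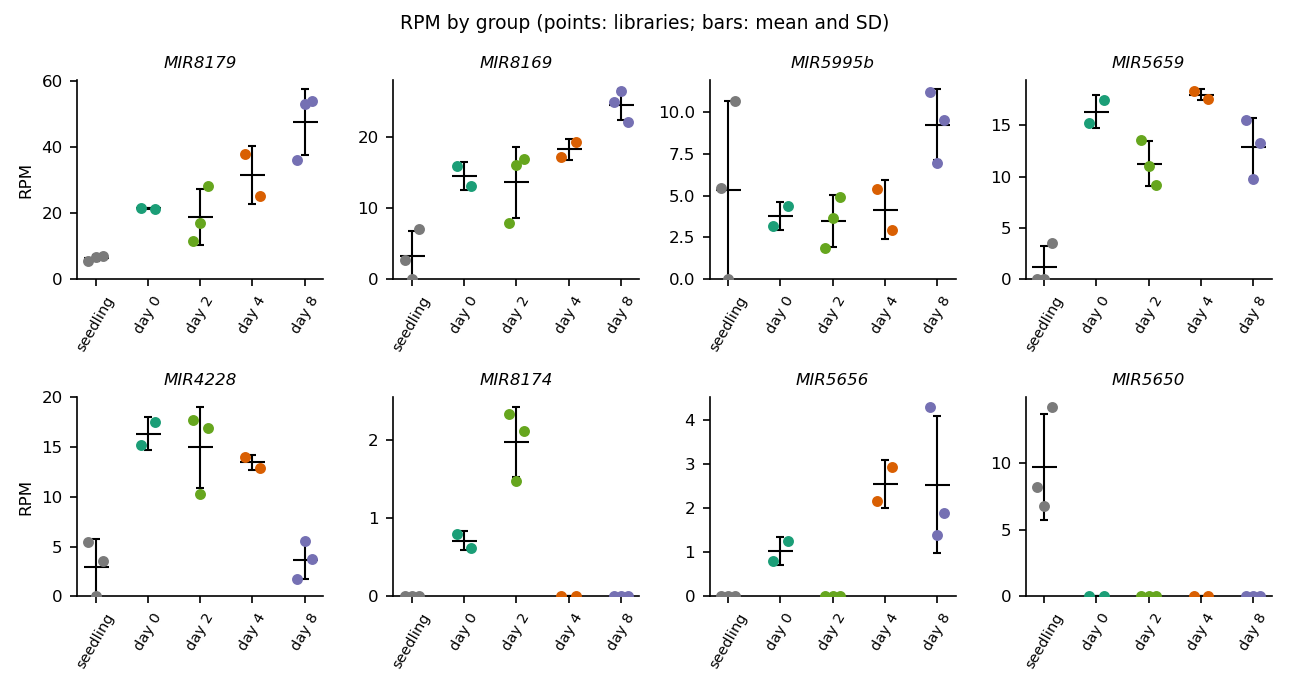
RPM (vertical axes, each from 0) of 8 loci by group (horizontal axes), with a point for each library, a horizontal bar for the mean and whiskers of 1 SD, drawn no lower than 0. *MIR8179* and *MIR8169* are highest on day 8, *MIR4228* is low on day 8, *MIR8174* is at 0 on days 4 and 8, *MIR5656* is at 0 on day 2, and *MIR5650* is above 0 in seedlings only.

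Day 8 against day 2 compares the inflorescence groups of 3 libraries, across runs. Of the 46 loci, 6 rose and 4 fell, while 23.4% of all tested genes were higher and 13.1% lower. The libraries of both days did not overlap for 13 loci, against 44.5% of all genes. The median log2 fold changes were 0.10 for the set and 0.20 over all genes, and median-ratio scaling moves them to -0.11 and -0.03.

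*MIR8179* had the most reads of the loci that rose. It lies in an intron of *CCS52A2*, on the same strand, a gene of an activator of the anaphase-promoting complex that acts in the cell cycle and in endoreduplication. It had 36.2, 53.0 and 53.9 RPM on day 8, against 11.7, 16.9 and 28.2 RPM on day 2, with no overlap. The log2 fold change was 1.35 (an SE of 0.29, limma adjusted p = 0.00067), from 203 reads on day 8 and 88 on day 2, and it passed under every alternative tried. Day 0, with 21.6 and 21.3 RPM, lay within the range of day 2, and day 4, with 37.8 and 25.3 RPM, overlapped both day 2 and day 8. Day 8 was also higher than day 0 (log2 fold change of 1.10 with an SE of 0.32, limma adjusted p = 0.012), a call that is lost with median-ratio scaling, the quantile-normalized values, no trend or the seedlings in the fit, and without day 0 replicate 1 or 2 or day 8 replicate 2. Within the run of days 4 and 8 it did not pass.

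*MIR8169*, at chr3:8836256-8836384 on the plus strand and outside any other gene, had 25.0, 26.5 and 22.2 RPM on day 8, against 7.93, 16.2 and 16.9 RPM on day 2. The log2 fold change was 0.86 (an SE of 0.29, limma adjusted p = 0.023). The call is lost with median-ratio scaling, the quantile-normalized values or the seedlings in the fit, and without day 2 replicate 1 or day 8 replicate 1 or 2. Day 0, with 16.0 and 13.1 RPM, lay within the range of day 2, and day 4, with 17.3 and 19.4 RPM, above it.

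*MIR5995b* had 11.2, 6.98 and 9.52 RPM on day 8, against 1.87, 3.67 and 4.94 RPM on day 2 (log2 fold change of 1.23 with an SE of 0.39, limma adjusted p = 0.016). It had 3.20 and 4.38 RPM on day 0, 5.40 and 2.94 RPM on day 4, and 5.45, 0 and 10.6 RPM in seedlings. The locus lies opposite *MIR5595a* and an untranslated or partial exon of *MES6*, a methyl esterase gene. Which strand was counted is not given in the sources used here, so reads of the opposite genes cannot be told apart. The call is lost with the quantile-normalized values or the seedlings in the fit, and without day 2 replicate 1 or day 8 replicate 1 or 3.

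*MIR5652* is antisense to a coding exon of AT1G63130, a gene of the pentatricopeptide repeat family. It had 8.61, 4.19 and 3.17 RPM on day 8, against 0.467, 0 and 4.94 RPM on day 2, which overlap (log2 fold change of 1.53 with an SE of 0.53, limma adjusted p = 0.028). It had 2.40 and 1.88 RPM on day 0, 2.16 and 2.35 RPM on day 4, and 5.45, 6.73 and 17.7 RPM in seedlings. This call is lost under 4 of 9 alternatives and without any of 4 libraries (day 2 replicates 1 and 2, day 8 replicates 1 and 2).

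*MIR5656*, in an intron of AT1G05780 on the same strand, was at 0 in the 3 day 2 libraries and above 0 in every other inflorescence library. It had 4.30, 1.40 and 1.90 RPM on day 8, 2.16 and 2.94 RPM on day 4 and 0.800 and 1.25 RPM on day 0. Against the 3 reads that day 2 could have held, it was 4.37-fold higher on day 4 (adjusted p = 0.0078 from limma) and 3.93-fold higher on day 8 (adjusted p = 0.0019 from limma), from 7 and 10 reads. Without day 4 replicate 2 the rise on day 4 had an adjusted p of 0.069.

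*MIR8174*, which overlaps the pseudogene AT3G45253, went the other way. No library of day 4 or day 8 had a read, against 2.33, 1.47 and 2.12 RPM on day 2 and 0.800 and 0.625 RPM on day 0. Only the day 2 libraries brought it into the fit. Against 3 reads over the later day, it was 1.78-fold lower on day 4 than on day 2 (adjusted p = 0.0078 from limma). That call is lost without day 4 replicate 1 or 2. On day 8 it was 2.82-fold lower than on day 2 (adjusted p = 0.0013 from limma). *MIR5656* and *MIR8174* were the loci that passed on day 4 against day 2, across runs, where 5.11% of all tested genes were higher and 7.3% lower, and 12 loci did not overlap, against 36.5% of all genes.

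*MIR5645d* and *MIR5645e*, on chromosomes 1 and 4 and outside other genes, were both lower on day 8 than on day 2. The 2 loci share the mature sequence but not the whole hairpin. Reads of exactly that sequence, found at 5 places, would not be among those counted here. *MIR5645d* was at 0 in the 3 day 8 libraries, against 1.40, 1.47 and 0.705 RPM on day 2. Against 3 reads over day 8 it was 1.69-fold lower, from 6 reads (adjusted p = 0.028 from limma). It had 0 and 0.587 RPM on day 4 and 0 and 1.25 RPM on day 0. *MIR5645e* had 2.58, 0 and 0 RPM on day 8, against 2.33, 2.94 and 2.82 RPM on day 2, 3 reads against 13, a ratio of 0.272 with a counting interval of 0.0498 to 0.991 (adjusted p = 0.046 from limma). It had 1.08 and 1.76 RPM on day 4 and 3.20 and 1.25 RPM on day 0. Leaving out any of 5 libraries ends the *MIR5645d* call (day 2 replicates 1 and 2 and each day 8 replicate), and any of 6 ends that of *MIR5645e* (day 0 replicate 2, each day 2 replicate, day 8 replicates 2 and 3).

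**Figure D4:**
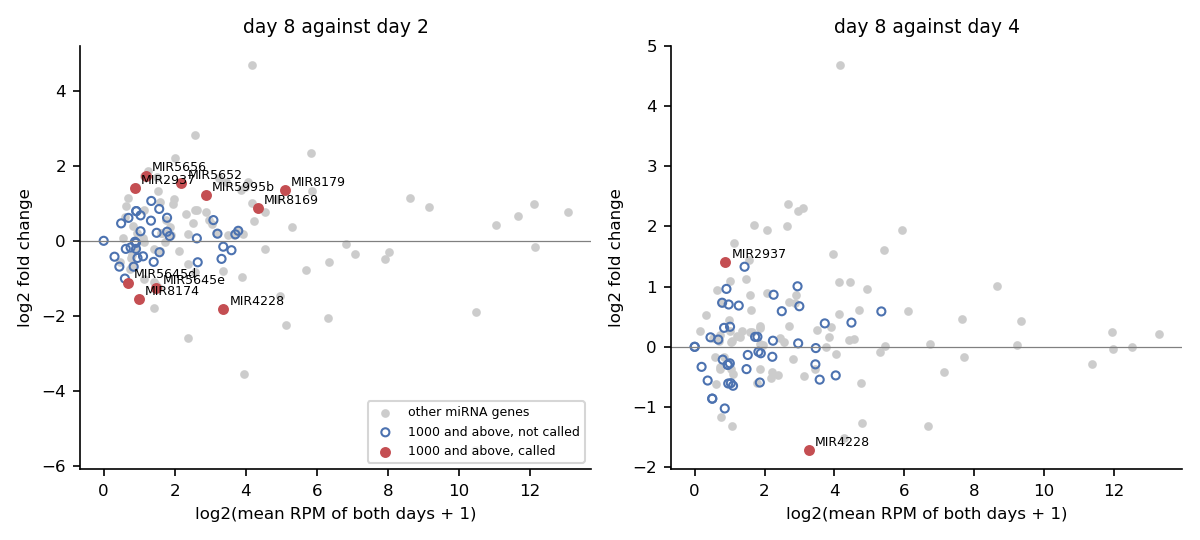
Log2 fold change of log2(RPM + 1) (vertical axes) against the mean level of both days (horizontal axes) for day 8 against day 2 (left) and day 8 against day 4 (right), with loci of family numbers 1000 and above as blue circles, filled red and named where they passed at an adjusted p under 0.05, and other miRNA genes in grey. On the left 6 loci lie above 0 and 4 below among those named, and on the right *MIR2937* lies above 0 and *MIR4228* below.

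On day 8 against day 0, across runs, *MIR8179* and *MIR8180* rose and *MIR4228* fell, while 18.2% of all tested genes were higher and 10.2% lower. The libraries did not overlap for 16 of the 46 loci, against 48.9% of all genes. *MIR8180*, outside other genes on chromosome 2, had 1.72, 2.09 and 1.90 RPM on day 8, against 0 in both day 0 libraries. Against 3 reads over day 0 it was 1.82-fold higher, from 8 reads (adjusted p = 0.015 from limma, a call that can be lost without 1 day 0 library). It had 0.467, 2.20 and 0.705 RPM on day 2 and 3.24 and 3.52 RPM on day 4. By limma's F test over the 4 stages (adjusted p under 0.05 and a range over 2-fold) 6 of the 46 loci changed (*MIR2937*, *MIR4228*, *MIR5656*, *MIR8174*, *MIR8179* and *MIR8180*), against 27% of all tested genes. The comparisons share their libraries, so their calls are not independent of each other.

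The other abundant loci did not pass between stages. *MIR5659*, outside other genes on chromosome 5, had 15.2 and 17.5 RPM on day 0, 13.5, 11.0 and 9.17 RPM on day 2, 18.4 and 17.6 RPM on day 4 and 15.5, 9.77 and 13.3 RPM on day 8. *MIR8165*, at an untranslated or partial exon of AT3G45180, had 5.60 and 7.50 RPM on day 0, 6.53, 19.8 and 6.35 RPM on day 2, 4.32 and 8.81 RPM on day 4 and 11.2, 4.19 and 5.71 RPM on day 8. Day 2 replicate 2 stood above the other 9 inflorescence libraries. *MIR8183*, in the transcribed pseudogene AT3G30110, had 11.2 and 9.38 RPM on day 0, 6.07, 8.82 and 7.76 RPM on day 2, 8.64 and 13.5 RPM on day 4 and 11.2, 9.07 and 6.34 RPM on day 8. *MIR8167f*, outside other genes on chromosome 5, had 8.00 and 6.88 RPM on day 0, 9.33, 12.5 and 7.76 RPM on day 2, 15.1 and 11.2 RPM on day 4 and 9.47, 10.5 and 6.34 RPM on day 8. Day 2 lay below day 0 without overlap in *MIR8183*, and day 4 lay above days 0 and 8 in *MIR8167f*. In *MIR5659* day 2 lay below days 0 and 4, and day 8 below day 4, also without overlap. Over all tested genes, libraries did not overlap for 23.4% on day 2 against day 0. The shares were 36.5% on day 4 against day 2 and 43.1% on day 8 against day 4. None of these comparisons passed the test for these loci, and day 4 against day 0 was not among the comparisons. *MIR5996* ranged from 2.82 to 11.9 RPM over the 10 libraries.

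Inflorescences were compared with seedlings on day 0, before induction, and on day 8. On day 0, 17 of 48 loci were higher and 1 lower, while 30.1% of all tested genes were higher and 15.7% lower. On day 8, 18 were higher and 1 lower, while 34.6% of all genes were higher and 15% lower. The median log2 fold changes, 0.69 on day 0 and 0.65 on day 8, stand beside 0.59 and 0.55 over all genes. With the quantile-normalized values the medians over all genes are 0.15 and 0.10. The libraries did not overlap for 21 loci on day 0 and 20 on day 8, against 51.6% and 47.7% of all genes. Most of the higher loci, however, were at 0 in all 3 seedling libraries (12 of 17 on day 0 and 13 of 18 on day 8), and 9 on each day lay under the 2.73 RPM that a single read is worth in the deepest seedling library. Only 7 on each day exceeded the 3.76 RPM of 3 reads over the seedlings.

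*MIR8179*, *MIR8169*, *MIR5659*, *MIR8165*, *MIR5014a* and *MIR8183* were among these 7 on both days, with *MIR4228* on day 0 and *MIR8167f* on day 8. *MIR8179* had 36.2, 53.0 and 53.9 RPM on day 8 and 21.6 and 21.3 RPM on day 0, against 5.45, 6.73 and 7.09 RPM in seedlings. The log2 fold changes were 2.70 on day 8 (SE 0.35, adjusted p = 2.7e-05) and 1.60 on day 0 (SE 0.39, adjusted p = 0.0044), both from limma. *MIR8169* was the next highest on day 8, against 2.73, 0 and 7.09 RPM in seedlings, with 3.03 as its log2 fold change (limma, adjusted p = 0.00072, SE 0.59). On day 0 this was 2.32 (limma, adjusted p = 0.012, SE 0.66), which is lost without day 0 replicate 1 or 2.

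*MIR5659* had 15.5, 9.77 and 13.3 RPM on day 8 and 15.2 and 17.5 RPM on day 0, against 0, 0 and 3.55 RPM in seedlings, a single read. Against seedlings, its log2 fold change was 3.04 on day 8 (SE 0.51, adjusted p = 0.00021) and 3.39 on day 0 (SE 0.57, adjusted p = 0.00032), both from limma. Its ratio of summed reads, 10.1 on day 8, has a counting interval of 1.74 to 408. *MIR8165* was at 0 in seedlings. Against 3 reads over the seedlings it was 1.78-fold higher on day 8 (11.2, 4.19 and 5.71 RPM) and 1.77-fold on day 0 (5.60 and 7.50 RPM). *MIR5014a*, at an untranslated or partial exon of *GAD2*, a glutamate decarboxylase gene, was also at 0 in seedlings. It had 6.89, 4.19 and 1.27 RPM on day 8 and 4.80 and 4.38 RPM on day 0, which is 1.02-fold and 1.21-fold the rate of 3 reads over the seedlings. Its values were 3.27, 11.0 and 4.94 RPM on day 2 and 4.32 and 2.35 RPM on day 4.

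*MIR4228* had 15.2 and 17.5 RPM on day 0, against 5.45, 0 and 3.55 RPM in seedlings (log2 fold change of 2.49 with an SE of 0.67, limma adjusted p = 0.0080, and 0.057 without day 0 replicate 2). It did not pass on day 8, its lowest of the 4 days. *MIR8183* had 11.2, 9.07 and 6.34 RPM on day 8 and 11.2 and 9.38 RPM on day 0, against 0, 6.73 and 3.55 RPM in seedlings, with overlap on day 8. Its adjusted p of 0.043 on day 8 and 0.044 on day 0, from limma, is lost without any of 11 of the 13 libraries, all but seedling replicates 2 and 3, on both days. *MIR8167f* had 9.47, 10.5 and 6.34 RPM on day 8, against 2.73, 6.73 and 0 RPM in seedlings (adjusted p = 0.030 from limma), which is lost without seedling replicate 1 or 3 or day 8 replicate 1 or 2. For both loci the counting interval of the ratio of summed reads on day 8, 0.886 to 29.5, includes 1.

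The other loci that passed were at 0 in seedlings and at most 3.51 RPM on the day compared when its reads are pooled, so that no fold against seedlings can be given. At an unchanged level they would be expected to give under 3 reads over the seedlings. Their zeros there thus do not by themselves show a lower level. *MIR5644* was the highest of them, with 4.00 and 3.13 RPM on day 0, 1.40, 2.20 and 1.41 RPM on day 2, 6.48 and 1.76 RPM on day 4 and 1.72, 3.49 and 4.44 RPM on day 8. *MIR5629*, at an untranslated or partial exon of *NDL2*, of a family linked to auxin transport, had 1.60 and 3.75 RPM on day 0, 0.467, 2.94 and 3.53 RPM on day 2, 2.16 and 3.52 RPM on day 4 and 1.72, 3.49 and 2.54 RPM on day 8. Both were above 0 in all 10 inflorescence libraries.

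So were *MIR5637*, in an intron of AT2G28620, and *MIR5666*. *MIR5637* had 2.40 and 1.25 RPM on day 0, 2.33, 2.20 and 2.12 RPM on day 2, 1.08 and 2.94 RPM on day 4 and 2.58, 0.698 and 1.90 RPM on day 8. *MIR5666* had 2.40 and 1.88 RPM on day 0, 0.467, 0.735 and 0.705 RPM on day 2, 3.24 and 1.17 RPM on day 4 and 2.58, 2.79 and 1.90 RPM on day 8, so that day 2 lay below every other inflorescence library. These 4 passed on both days.

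*MIR8168*, also past the threshold on both days, had 2.40 and 2.50 RPM on day 0, 1.40, 2.94 and 2.12 RPM on day 2, 0 and 0.587 RPM on day 4 and 0.861, 0.698 and 1.90 RPM on day 8. *MIR5635d* and *MIR5024* passed on day 0 only. *MIR5635d*, opposite an intron of AT4G02320, had 2.40 and 1.25 RPM on day 0, 0.467, 0.735 and 0.705 RPM on day 2, 0 and 0.587 RPM on day 4 and 0, 0.698 and 0.634 RPM on day 8. *MIR5024*, in an intron of the amino acid permease gene *AAP5*, had 0.800 and 1.88 RPM on day 0, 1.40, 1.47 and 0.705 RPM on day 2, 1.08 and 1.76 RPM on day 4 and 0, 1.40 and 0.634 RPM on day 8.

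*MIR5997*, *MIR4245* and *MIR5632* passed on day 8 only. *MIR5997*, outside other genes, had 3.20 and 0 RPM on day 0, 0.467, 1.47 and 1.41 RPM on day 2, 0 and 1.17 RPM on day 4 and 1.72, 3.49 and 3.17 RPM on day 8. *MIR4245*, in an intron of AT5G52070, had 0 and 3.13 RPM on day 0, 2.80, 1.47 and 0.705 RPM on day 2, 1.08 and 0.587 RPM on day 4 and 2.58, 1.40 and 1.90 RPM on day 8. *MIR5632*, in an intron of AT2G19390, had 0 and 0.625 RPM on day 0, 0.467, 0 and 0.705 RPM on day 2, 1.08 and 0 RPM on day 4 and 0.861, 1.40 and 1.90 RPM on day 8. *MIR5656*, *MIR5645e* and *MIR8174* completed the higher loci of day 0, and *MIR5656*, *MIR2937* and *MIR8180* those of day 8. Many of these calls rest on single libraries. Those of day 0 are lost without day 0 replicate 2 (*MIR5629*), day 0 replicate 1 (*MIR5637*), seedling replicate 1 or day 0 replicate 1 (*MIR5645e*), seedling replicate 2 or 3 or day 0 replicate 1 (*MIR8174*), any seedling library or day 0 replicate 2 (*MIR5024*), and any of 10 of the 13 libraries (*MIR5656*, all but day 4 replicate 1 and day 8 replicates 1 and 2). Those of day 8 are lost without day 8 replicate 1 (*MIR4245*) or day 8 replicate 3 (*MIR8168*). That these loci passed on one day and not on the other does not show a difference between the days.

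*MIR5650* was the only locus that passed the test as lower in inflorescences. On day 0, *MIR5652* (log2 fold change of -1.64, limma adjusted p = 0.076) and *MIR3434* (-0.64, limma adjusted p = 0.16) were also below every seedling library without passing. With median-ratio scaling both passed on day 0 and *MIR3434* on day 8, and with a pseudocount of 5 *MIR5652* passed on day 0. *MIR5650* lies in an intron of *EDA4*, on the same strand. It was at 0 in all 10 inflorescence libraries and had 8.18, 6.73 and 14.2 RPM in seedlings, from 8 reads in libraries far shallower than those at 0. Against 3 reads over the group it was 13.9-fold lower on day 8 (adjusted p = 1.8e-06) and 9.53-fold lower on day 0 (adjusted p = 4.3e-06), both from limma. Both calls held under every alternative that tested it and without any 1 library. *MIR5650* met the filter of the fit only through the seedlings, the group where it is high. Zeros in all 10 inflorescence libraries have no spread, so these p-values do not carry the counting error of the 8 reads. Seedlings alone make up run 1, so tissue and run cannot be told apart here.

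The surroundings of the loci in TAIR10.1 bear on what was counted. Of the 132, 52 overlap a protein-coding gene, 16 another kind of gene and 64 none. The detected share was 69.2% (36 loci), 62.5% (10) and 53.1% (34) in these classes, with 1471, 434 and 889 reads. Within protein-coding genes, loci on the same strand as the host were detected in 24 of 31 cases (77.4%) and those on the opposite strand in 12 of 21 (57.1%). By part of the host gene, 13 of 17 in introns, 16 of 21 in untranslated or partial exons and 7 of 14 in coding exons were detected. In a table of reads per locus, host RNA fragments cannot be told apart from hairpin products for a locus on the host's strand. As the counted strand is unknown, this also holds for loci on the opposite strand, such as *MIR5647*, *MIR5652* and *MIR5635d*. Whether host RNA gives part of these reads was not tested.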

How the data were processed

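Small RNA of 13 libraries was analysed. The authors used Trim Galore for trimming, STAR with TAIR10 for mapping and STAR's gene counts over miRBase loci, and deposited RPM values. The versions used for the small RNA reads: not given in the sources used here. A deposited score table of RPM values after quantile normalization by the authors holds 57 of the 132 loci among 169 and served as an alternative. The 5 pooled columns and 3 columns of no sample were not used. The RPM of 1 read in each library was estimated from the low values (tolerance 0.1). The deposited values are RPM, so no count model was used. Reads estimated in this way served for read counts, thinning, filters and counting intervals. Replicates differed by more than sampling noise (chi-square of 2.54 to 12.3 per gene), so each library was kept. limma 3.58.1 (R 4.3.3) was fitted with trend and a pseudocount of 1, with 1 term per group, two-sided. It was tested on simulated data, with changes planted only in genes of higher level than most of the loci that passed here. That test does not cover loci near 0. Tables were handled in pandas 2.3.3 and numpy 2.4.6 under Python 3.11.15, intervals came from scipy 1.17.1, and plots from matplotlib 3.10.9. Sequences come from RefSeq (TAIR10.1), to which all 132 loci matched by name, and an exact search of both strands gave their places.

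Named with every library's value are the loci that passed in any comparison, and with group means the 10 most abundant in inflorescences and the 5 in seedlings. The set, the lists and the tests were chosen with earlier results of these data known. Alternatives were other pseudocounts, filters, scalings, no trend, all libraries in the fit, a replicate block and leaving out each library. The labels' notes and the paper disagree on the DEX dose and the kits, and neither is given here.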

Additional observations from a re-analysis of the deposited data

How the results depend on the processing

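Single loci were followed only where they had passed in the main fit and were still tested under the alternative. No such value turned its direction, which says nothing of the loci that did not pass. Of 1110 such values, 974 stayed on their side of the threshold and 136 lost the call, and of 313 counts 261 stayed within 1.5 times. A pseudocount of 5 gave 2 loci changed across the 4 stages and 2 lower on day 0 than in seedlings. A minimum of 10 RPM, which tests fewer genes, gave 0 lower on day 4 against day 2, 0 higher on day 8 against day 4, 2 higher and 1 lower on day 8 against day 2, 2 across the stages, and against seedlings 6 higher and 0 lower on day 0 and 7 and 0 on day 8. A minimum of 3 reads gave 2 lower on day 4 against day 2 and 0 higher on day 8 against day 4. Median-ratio scaling gave 2 lower on day 4 against day 2, 1 higher on day 8 against day 0, and 3 and 2 lower than seedlings on days 0 and 8. The quantile-normalized values gave 2 higher and 2 lower on day 4 against day 2, 2 lower on day 8 against day 4, 3 higher on day 8 against day 2, 2 lower on day 8 against day 0, and 11 and 10 higher than seedlings on days 0 and 8. Without the trend 2 were lower on day 4 against day 2, and with all 13 libraries in the fit 0 were lower on day 8 against day 4 and 0 against day 0. Counting only loci over 3 seedling reads, chosen after the data were seen, left 7 and 7 higher than seedlings. At least 3 reads in 1 library detects 40 loci, and 1 RPM in every library of a group 36. The cause of these shifts was not tested beyond the fewer genes of the stricter filters.

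Leaving out 1 library gave 5 to 8 across the stages, 0 to 2 higher and 0 to 1 lower on day 4 against day 2, 0 to 1 higher and 1 to 1 lower on day 8 against day 4, 3 to 7 higher and 2 to 5 lower on day 8 against day 2, and 0 to 4 higher and 1 to 2 lower on day 8 against day 0. Against seedlings it gave 12 to 16 higher and 1 to 2 lower on day 0, and 16 to 20 higher and 1 to 1 lower on day 8. Day 2 against day 0 stayed at 0 to 0 in both directions. Where 1 library of a group was left, it is assumed to vary like the others. Same-numbered replicates gave no sign of deviating together (correlations of -0.19 to 0.15, 4 of 23 over 0.1, against -0.14 to 0.17 for other pairs). This cannot exclude pairing, as deviations were taken from group means and mirror each other in groups of 2 libraries. With a replicate block, 2 loci were higher on day 4 against day 2, and the other counts stayed within 1.5 times. Depth limits most of all the loci at 1 to 3 reads a library, where 1 read decides a value.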
